A study of Mus musculus with 2 samples.

Results

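The genes described here belong to families of enzymes that add or remove acetyl and methyl groups on histone lysines. Some members, such as Hdac6, Hdac10 and Sirt2, are described below by other substrates. Peaks were taken when the gene assigned to them in the deposited annotation was an Hdac gene, Sirt1 to Sirt7, a Kdm, Kmt2 or Kmt5 gene, a numbered Kat or Setd gene, or Ezh1 or Ezh2. This name rule took 339 of the 99782 annotated peaks, and 60 of the 62 mouse genes with such names had at least 1 of them. Of the 339 peaks, 228 lay inside the body of the assigned gene, so a peak given to a gene below can lie far outside it. No value over all peaks stands beside this count. The rule also takes the Kat acetyltransferases, and the Setd genes include Setd3, an actin histidine methyltransferase.

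The series used CUT&Tag, in which an antibody bound to chromatin guides the transposase Tn5 to cut and tag the DNA around it. The 2 libraries came from hippocampus of untreated C57BL/6J mice with the genotype CamK-PARIS, of which 1 targeted PARIS through its FLAG tag (anti-FLAG) and 1 was the anti-IgG control. Both groups share strain, tissue and genotype, and the labels give neither the animals' age, sex or number nor how the allele behind that genotype name was made. With 1 library per antibody no difference could be tested against replicate error, and each value below describes the peaks of the anti-FLAG library that the authors called against IgG.

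Acetylation of histone tails loosens chromatin and recruits bromodomain proteins. Deacetylases of the zinc-dependent class (Hdac) and the NAD-dependent class (Sirt) reverse it, often inside corepressor complexes. Methylation works by site. Kmt2a to Kmt2d and the Setd1 enzymes methylate lysine 4 of histone H3 at promoters and enhancers. Ezh1 and Ezh2 methylate lysine 27 of H3 in Polycomb repressive complex 2, and Kdm enzymes remove such groups. In the hippocampus Hdac2, Kmt2a and their partners are known for roles in memory and in activity-dependent transcription. PARIS, the product of the mouse gene Zfp746, is a zinc-finger repressor of transcription, and the insulin response sequence has been reported as its binding element.

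A peak's maximum signal is the highest read coverage the authors recorded in it, and its total signal is coverage summed over its bases. Over all annotated peaks the median maximum signal was 101, the quartiles were 66 and 135, and the extremes were 5 and 2395. Sequencing depth is unknown from the files. A peak is called of constant height here when its total signal is at least 99% of its maximum signal times its width, which holds for a flat block of coverage, and of varying height otherwise. Whether the coverage was scaled was not established, so a height may not be a plain count of reads. The origin of the flat blocks was not tested. Intervals are 95% intervals (Wilson for shares, order statistics for medians) and cover counting error over peaks or genes only. Peaks show position on DNA and not expression, so the tissue label could not be checked with marker genes.

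The sequences that carry the strongest signal come first. These are the 200 bp of the mm10 build at the region of maximum signal in the 3 highest peaks of the group, printed on the plus strand, so that they can be compared with the reported binding element (TATTTTT or TATTTTG, searched on both strands). None of them holds a match, so no letters are in capitals. The Kat7 window lies in an intron of Kat7, and the Kdm6b and Kdm4b windows overlap no gene in GENCODE M21.
Kat7, chr11:95309771-95309970: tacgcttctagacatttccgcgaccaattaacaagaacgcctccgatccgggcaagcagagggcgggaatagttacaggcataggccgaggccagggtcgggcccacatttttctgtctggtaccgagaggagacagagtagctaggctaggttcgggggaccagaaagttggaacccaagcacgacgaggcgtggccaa
Kdm6b, chr11:69418872-69419071: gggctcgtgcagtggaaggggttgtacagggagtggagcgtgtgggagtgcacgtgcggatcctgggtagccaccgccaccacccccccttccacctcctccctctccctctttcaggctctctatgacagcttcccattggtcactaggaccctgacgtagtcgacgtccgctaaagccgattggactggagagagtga
Kdm4b, chr17:56325758-56325957: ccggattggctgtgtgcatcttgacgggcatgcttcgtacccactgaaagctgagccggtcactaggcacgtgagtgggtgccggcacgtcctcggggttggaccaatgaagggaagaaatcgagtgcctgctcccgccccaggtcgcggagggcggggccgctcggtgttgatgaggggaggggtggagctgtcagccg

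Among the peaks of the group within 1 kb of an annotated transcription start site (TSS), 2 held the element in the 200 bp window. They are shown as 60 bases on the minus strand, 5′ to 3′, with the match in capitals. Both windows are intronic, in Kmt2d and in Setd1b, and the second also lies within the overlapping gene Gm26745.
Kmt2d, chr15:98870711-98870770: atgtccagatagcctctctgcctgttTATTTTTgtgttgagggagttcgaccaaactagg
Setd1b, chr5:123143596-123143655: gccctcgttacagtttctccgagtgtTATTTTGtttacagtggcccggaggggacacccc
The Kmt2d peak with this match had a maximum signal of 39, under the median of all peaks, and the Setd1b peak had 184.

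Nearly every gene of the group carried a peak, and most carried one close to a start site. An assigned peak was present for 60 of 62 genes (96.8%), and for 72.7% of all 21938 protein-coding genes. A peak within 1 kb of the TSS of its assigned transcript was present for 47 genes (75.8%, interval 63.8 to 84.8), against 42.5% of protein-coding genes. When only peaks of varying height were counted, 37 genes (59.7%, 47.3 to 71.0) had one, against 28.8%. The 5′ end of the gene itself lay inside a peak for 22 genes (35.5%, 24.7 to 47.9), against 20.4%. Each of these intervals lay above the value over all genes.

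Gene size and the number of start sites differed in the same direction. The median length was 41.6 kb for the 62 genes and 17.4 kb for all protein-coding genes, and the median number of distinct annotated start sites was 8 and 3. Among genes of 20 to 100 kb, a grouping chosen after the values were seen, 30 of 37 genes of the group (81.1%, 65.8 to 90.5) had a peak within 1 kb of a TSS, against 50.9% of 7667 protein-coding genes. In that range the 5′ end was inside a peak for 15 of 37 (40.5%, 26.3 to 56.5), against 24.2%. Of the 9 genes of 100 kb or more, 6 (66.7%, 35.4 to 87.9) had a peak within 1 kb, against 63.9% of 2492 genes, a difference within the interval, and the 5′ end was inside a peak for 2 of 9 (22.2%, 6.32 to 54.7), against 27.1%. Under 20 kb, 11 of 16 genes (68.8%, 44.4 to 85.8) had a peak within 1 kb, against 32.5% of 11779 genes, and the 5′ end was inside a peak for 5 of 16 (31.2%, 14.2 to 55.6), against 16.5%. Any assigned peak was present for 100% of the group's genes under 20 kb, against 60.2% of all genes. At 20 to 100 kb these shares were 94.6% and 84.5%, and at 100 kb or more 100% and 95.4%. The number of start sites also differed within these ranges, with medians of 6.5 and 2 under 20 kb, 8 and 4 in the middle range, and 8 and 6 at 100 kb or more. Its part in the result was not tested.

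**Figure D1:**
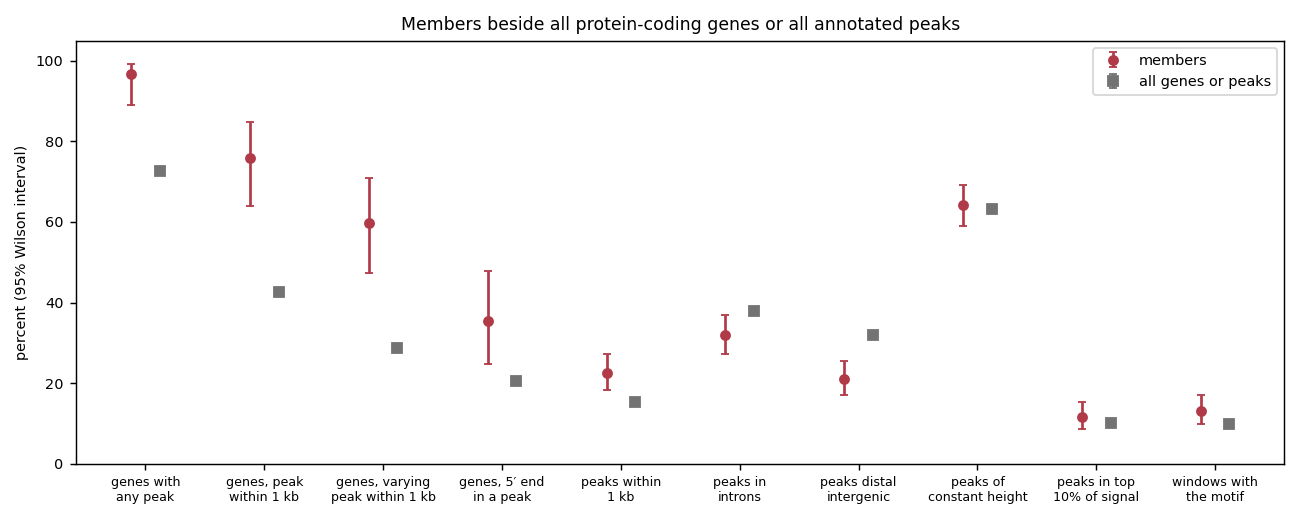
Percent of genes (4 columns on the left) or of peaks (6 columns on the right) with each property, for the group (red circles) and for all protein-coding genes or annotated peaks (grey squares), with 95% Wilson intervals. The group lies above all genes in the 4 gene columns, with 75.8% against 42.5% for a peak within 1 kb of a TSS, and close to all peaks for constant height (64.3% and 63.3%).

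Within the peak list the group's peaks also lay nearer to start sites. Of the 339 peaks, 76 (22.4%, 18.3 to 27.2) lay within 1 kb of the assigned TSS, against 15.3% of all annotated peaks, and the median distance was 5015 bp against 14783 bp. Introns held 108 (31.9%, 27.1 to 37.0) against 38.0%, distal intergenic positions 71 (20.9%, 17.0 to 25.6) against 31.9%, and exons 24 (7.08%, 4.80 to 10.3) against 3.52%. The share of constant height was 64.3% (59.1 to 69.2), beside 63.3% of all peaks, which lies inside the interval. Near a TSS 50 of 76 peaks (65.8%) had varying height, and 55.5% of all near-TSS peaks did. This difference is given without an interval and was not tested.

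Start site here means any annotated transcript start, and many of these peaks sat inside the gene. Of the 76 near-TSS peaks, 17 covered the gene's 5′ end and 42 lay more than 1 kb from it. Of these 42, 41 lay inside the gene body and 1, assigned to Kdm2b, lay 24094 bp before the 5′ end given by GENCODE M21. In 25 genes a peak was near some start site while the 5′ end was not covered. These counts have no value over all near-TSS peaks or all genes beside them and do not set the group apart. Another protein-coding gene started within 1 kb of 2 of the 76 peaks: Ccdc77 beside Kdm5a, and Nfkbib beside Sirt2. Conversely, the 5′ ends of Hdac3, Kdm1b, Setd3 and Sirt3 were covered by peaks that the annotation gave to the neighbours Rell2, Tpmt, Ccnk and Psmd13, with maximum signals of 260, 94, 138 and 60.

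The typical height of the group's peaks was that of the whole list. Their median maximum signal was 103 (97 to 110), beside 101 for all peaks, and the median width was 368 bp beside 363 bp. The highest 10% of all peaks, those with a maximum signal of at least 189, included 39 peaks of the group (11.5%, 8.53 to 15.3) beside 10.1% of all annotated peaks, so this share was near the background. All 39 had varying height, as did all but 0.139% of the peaks of that height in the whole list, and 17 (43.6%, 29.3 to 59.0) lay within 1 kb of a TSS, beside 32.2% of all peaks of that height, which lies inside the interval. They belonged to 25 genes. Near a TSS the median was 130.5 (96 to 153) for the group and 116 for all peaks, with the latter inside the interval.

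**Figure D2:**
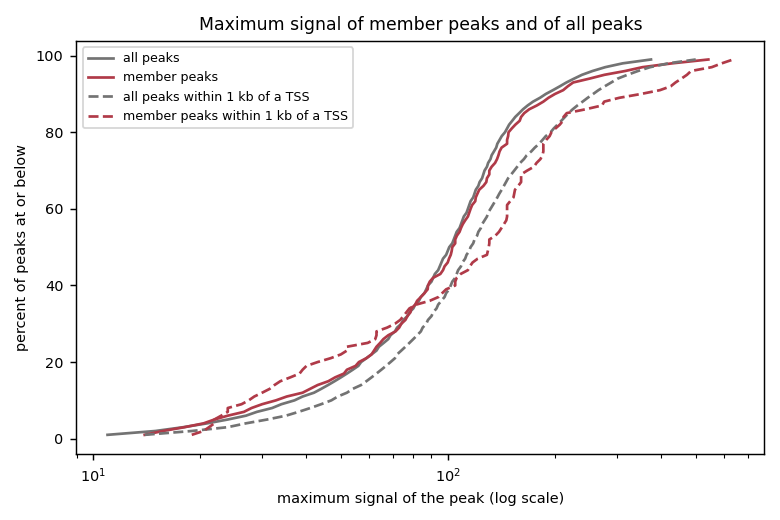
Percent of peaks (vertical axis) with a maximum signal at or below the value on the horizontal axis (log scale), from the 1st to the 99th percentile, for all peaks and the group's peaks (solid lines) and for those within 1 kb of a TSS (dashed lines). The solid lines lie close in the middle, with medians of 103 and 101, and part in the upper tail, with 276 for the group and 239 for all peaks at the 95th percentile. The gap in the tail is given without an interval and was not tested. The dashed lines have medians of 130.5 and 116.

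Kat7, an acetyltransferase of the MYST family that acetylates histone H3 at lysine 14, had the highest peak. Its only assigned peak (chr11:95309587-95310460) reached 731, rank 46 of the whole list, covered the 5′ end of the gene and was 874 bp wide. Second was a peak of Kdm6b, a demethylase of lysine 27 of histone H3, with 705 (rank 58) at a distal intergenic position 5294 bp upstream of the TSS. A peak over the 5′ end of Kdm4b, a demethylase of lysine 9 of histone H3, followed with 606 (rank 130). The next were Kmt2c with 578, a second Kdm6b peak with 485, Kmt2d with 468, Hdac7 with 443, Hdac4 with 425, Kmt2a with 387 and a second Hdac7 peak with 360. Of these 10 peaks, 8 lay within 1 kb of the assigned TSS, and the exceptions were the distal Kdm6b peak and the second Hdac7 peak, 2407 bp past a TSS. Demethylase, methyltransferase and class IIa deacetylase genes made up 9 of the 10, and they hold 79.6% of the 339 peaks.

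**Figure D3:**
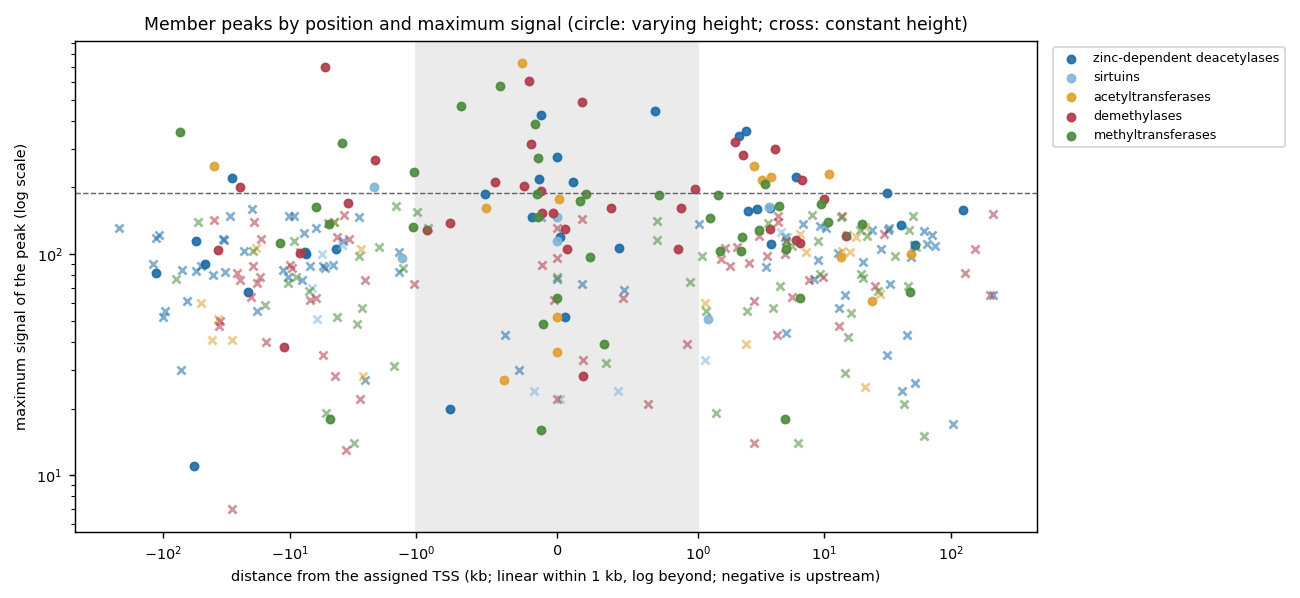
Each of the 339 peaks by its distance from the assigned TSS (horizontal axis, kb, linear within 1 kb and logarithmic beyond) and its maximum signal (vertical axis, log scale), coloured by enzyme class, with circles for varying and crosses for constant height. The grey band is 1 kb to either side of the TSS and the dashed line is 189, the limit of the highest 10% of all peaks; no cross lies above it.

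The zinc-dependent deacetylases had peaks at 10 of 11 genes, and at 9 within 1 kb of a TSS. Of all protein-coding genes, 72.7% and 42.5% had such peaks. Each class is small, and its difference from all genes was not tested, here or for the classes below. The 4 class I genes, whose Hdac1, Hdac2 and Hdac3 act in the Sin3, NuRD, CoREST and NCoR complexes, had 12 peaks in all, with a highest maximum signal of 156 and none in the highest 10% of the list. Hdac1 had no assigned peak, and the peak nearest to its 5′ end lay 12702 bp away with a maximum signal of 142 and was given to Lck. Hdac2 was assigned 9 peaks from 11 to 131, of which 2 lay inside its body, and the one over its 5′ end reached 107. The peak of 131 lay 223090 bp upstream of its assigned TSS. Hdac3, the enzyme of the NCoR complex, had 2 peaks of 156 and 77, both more than 10 kb inside the gene, besides the peak of 260 at its 5′ end that was given to Rell2. Hdac8, on the X chromosome, had a single peak, of constant height and in intron 4 of 10, with a maximum close to the median of all peaks.

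Class IIa deacetylases, which shuttle between nucleus and cytoplasm and repress Mef2 targets, held most of the class's peaks. Hdac4, Hdac5, Hdac7 and Hdac9 had 81 of the 102 peaks and 9 of the 10 in the highest 10%. Each gene had a peak of varying height within 1 kb of a TSS, as did 28.8% of all protein-coding genes. The Hdac5 peak of this kind reached 20 and lay 28565 bp into the gene. Those of Hdac9 reached 119 and 52 and lay 388461 and 10220 bp into the gene. Hdac4 had 37 peaks, more than any other gene of the group: 20 inside its 267 kb body, 9 before the 5′ end and as far as 121 kb from it, and 8 past the 3′ end. Of these, 29 were of constant height. The Hdac4 maximum was 425, next to an internal TSS 15242 bp into the gene, while the peak at the 5′ end reached 211 and a distal peak 28525 bp upstream of a TSS reached 221. Hdac9 had 26 peaks, 23 of them in its 870 kb body and 22 of constant height, with the highest at 189 in intron 6 of 24. Counting every peak in the body, whichever gene it was assigned to (25 in Hdac9 and 20 in Hdac4), the density was 2.88 peaks per 100 kb in Hdac9 and 7.49 in Hdac4, where the 62 genes had a median of 7.16 and all protein-coding genes 3.34. Together Hdac4 and Hdac9 held 63 of the 339 peaks (18.6%).

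Hdac7 had 8 peaks with a median maximum signal of 192, beside 103 for Hdac4. Of these, 6 had varying height and 4 were in the highest 10%, with 443, 360, 276 and 223, and these 4 lay between 13036 and 32096 bp into the gene, none at its 5′ end. The Hdac5 maximum was 341, 2098 bp past a TSS and 13340 bp into the gene, and its other 9 peaks did not exceed 136. In class IIb, Hdac6, a cytoplasmic tubulin deacetylase, had peaks of 147 and 125, and Hdac10, a polyamine deacetylase, had 186, 147 and 73, all 3 within 1 kb of a TSS. Hdac11, the class IV enzyme, had 4 peaks, and the highest of 218 covered its 5′ end.

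**Figure D4:**
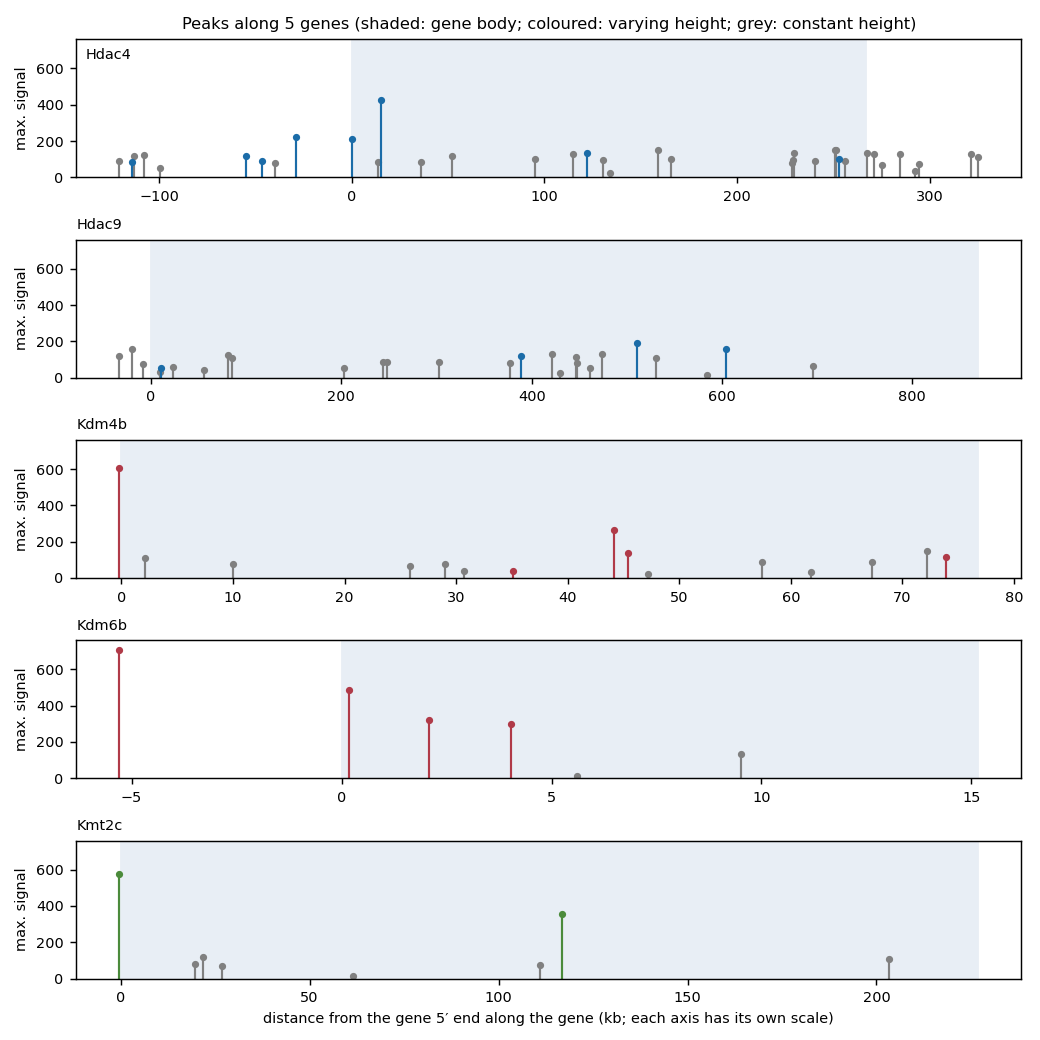
Maximum signal (vertical axis) of the assigned peaks of Hdac4, Hdac9, Kdm4b, Kdm6b and Kmt2c by their distance from the gene's 5′ end (horizontal axis, kb, a scale for each gene), with the gene body shaded, varying height in colour and constant height in grey. Hdac4 and Hdac9 show many peaks spread over and around the gene, while Kdm4b and Kmt2c show their highest peaks, 606 and 578, at the 5′ end.

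All 7 sirtuin genes had a peak, 4 of them within 1 kb of a TSS, beside 72.7% and 42.5% of all protein-coding genes. Their 16 peaks ranged from 22 to 200 with a median maximum signal of 98, close to the 101 of all peaks. Sirt2, a mainly cytoplasmic tubulin deacetylase, had the highest with 200, at 15664 bp into the gene, and a peak of 147 over its 5′ end. Sirt4, a mitochondrial enzyme, had the most with 5 peaks, the highest 164 at a distal position and none within 1 kb. Sirt1, a nuclear deacetylase of histones and transcription factors, had 2 constant-height intronic peaks of 126 and 110. The single assigned peaks of the mitochondrial Sirt3 and Sirt5 and of the nucleolar Sirt7 reached 22, 96 and 114, and Sirt6 had 3 peaks of at most 119.

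Among the acetyltransferases all 8 genes had a peak, and 5 had one within 1 kb of a TSS. The shares over all protein-coding genes were 72.7% and 42.5%. Kat6b, a MYST enzyme for lysine 23 of histone H3, had the most with 14, of which 11 were intronic. Its 3 highest reached 251, 250 and 224 at 101862, 38322 and 39408 bp into its 191 kb body, and its 5′ end was 15234 bp from the nearest peak. Kat5 (Tip60) had a single peak of 178, 684 bp into the gene. The 5′ end of Kat2a (Gcn5) lay in a peak of 36 and that of Kat6a in a peak of 52, both under the lower quartile of all peaks. Kat2b (PCAF), Kat8 (MOF) and Kat14 had no peak within 1 kb, and their highest peaks reached 217, 39 and 229.

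Demethylase genes had peaks at 17 of 18, and at 13 within 1 kb of a TSS, beside 72.7% and 42.5% of all protein-coding genes. Of the 6 Kdm6b peaks, 4 were in the highest 10%, with 705, 485, 322 and 298, all of varying height and between 1212 and 2316 bp wide. They lay 5296 bp before the 5′ end, at the 5′ end, and 2090 and 4045 bp into a gene of 15.2 kb. Its total signal summed to 1023262 over 6 peaks, beside 1147797 over the 37 peaks of Hdac4. Its paralogue Kdm6a, on the X chromosome, had 1 constant-height peak of 123, 29519 bp from its 5′ end.

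Kdm4b had the most peaks of the class with 15, of which 14 lay in its body. After the peak of 606 at the 5′ end the next reached 266, 44101 bp into the gene, and 10 of the 15 were of constant height. Kdm4a and Kdm4c, of the same family, had maxima of 64 and 193, and Kdm4d had no assigned peak, with the nearest 14817 bp from its 5′ end. Kdm2b and Kdm2a, which bind unmethylated CpG islands through a CXXC domain, had 13 and 10 peaks with maxima of 216 and 314. Of these, 6 and 4 lay within 1 kb of a TSS. Kdm3a and Kdm3b, demethylases of lysine 9, both had a peak over the 5′ end, with 212 and 161. The highest Kdm3b peak reached 280 and lay 2355 bp into the gene. Kdm1a (LSD1), the demethylase of the CoREST complex, had 2 peaks of 178 and 91 and none within 1 kb of a TSS.

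Kdm5 enzymes remove methyl groups from lysine 4 of histone H3, and 2 of their 4 genes are sex-linked. Kdm5b had a maximum of 196, 979 bp past a TSS, and Kdm5a 2 constant-height peaks of at most 102. Kdm5c, on the X, had 7 peaks of 82 to 140, of which 1 had varying height. Its Y homologue Kdm5d had a peak of 200 that lay 24638 bp from its assigned TSS, and a constant-height peak of 72. Together the X genes Hdac6, Hdac8, Kdm5c and Kdm6a had 11 peaks and none above 147. The peaks of Kdm7a reached 142 over 11 peaks and those of Kdm8 62 over 2.

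All 18 methyltransferase genes had a peak, and 16 had one within 1 kb of a TSS, beside 72.7% and 42.5% of all protein-coding genes. In the Kmt2 family, the catalytic subunits of COMPASS complexes and Kmt2e, all 5 genes had a peak within 1 kb. Of their 37 peaks, 6 were in the highest 10%, which held 10.1% of all annotated peaks. This difference was not tested. The peak of 578 lay over the 5′ end of Kmt2c, and a second Kmt2c peak of 356 was in intron 9 of 58. Kmt2d had the most peaks of the class with 10, 7 of them of varying height; the highest, 468 and 235, lay 693 and 1117 bp before its 5′ end, while the peak nearest to that end reached 39. The Kmt2a peak over its 5′ end (chr9:44880051-44884211) had a maximum of 387 and was the widest of the group at 4161 bp. Its total signal of 428899 was also the highest of the group. Kmt2b had 2 constant-height peaks of 165 and 131, and Kmt2e had 8 with a maximum of 208 in exon 26 of 26.

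The 8 Setd genes had 37 peaks, and 7 genes had one within 1 kb of a TSS. Setd1b had the highest with 319, upstream of its start, and peaks of 132 over the 5′ end and 184 just inside. Setd1a, also a lysine 4 methyltransferase, had 1 peak of 174 over its 5′ end, 1652 bp wide. Setd2, which methylates lysine 36, had 271 and Setd7 186 at the 5′ end. Setd3, an actin histidine methyltransferase, had 9 peaks, all of constant height and at most 148. Ezh1 and Ezh2 had 6 and 5 peaks with maxima of 165 and 140; the Ezh2 peak over the 5′ end reached 48, and the peak nearest to the 5′ end of Ezh1 lay 11736 bp away. Of the Kmt5 genes, for methyltransferases of lysine 20 of histone H4, Kmt5a had 1 peak of 186, Kmt5b 5 of at most 150, and Kmt5c 2 of at most 137 with none within 1 kb.

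**Figure D5:**
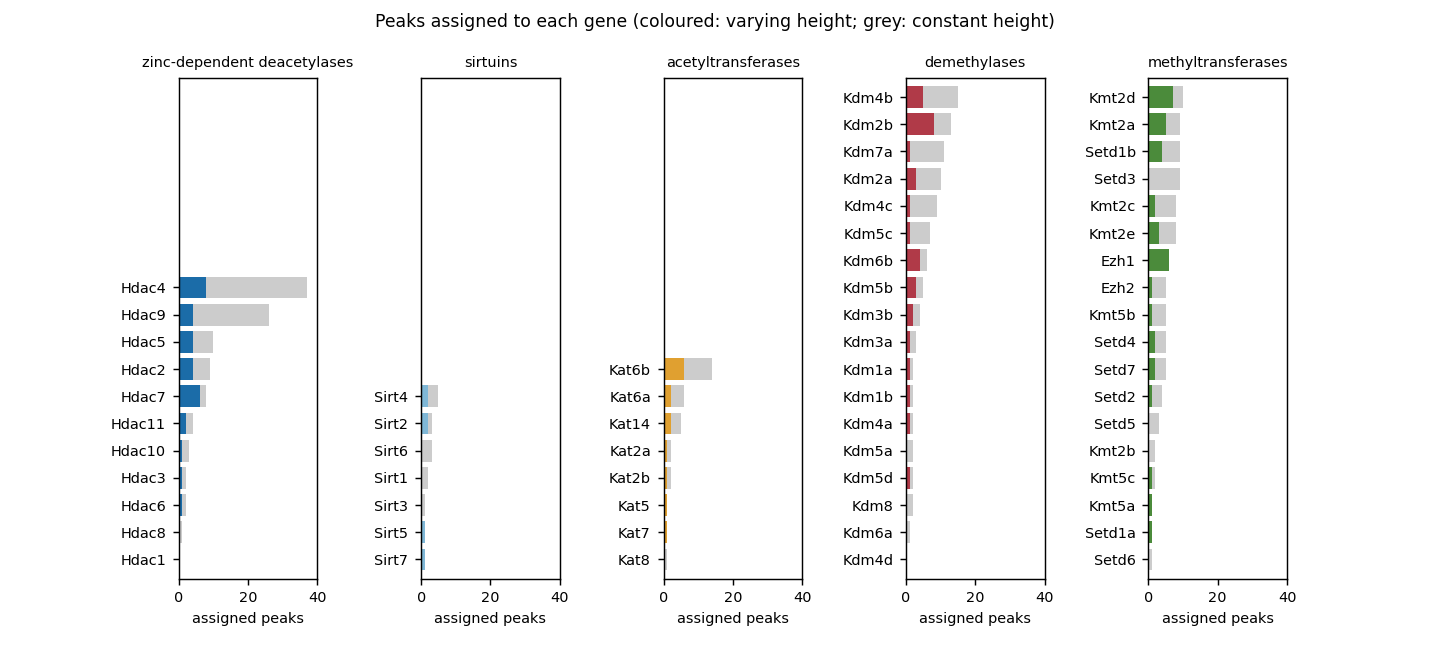
Number of assigned peaks (horizontal axis) of each of the 62 genes, by enzyme class, with peaks of varying height in colour and of constant height in grey. Hdac4 with 37 and Hdac9 with 26 have the longest bars, and Hdac1 and Kdm4d have none.

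Across the classes, 15 of the 62 genes had no peak within 1 kb of a TSS: Hdac1, Hdac8, Kat14, Kat2b, Kat8, Kdm1a, Kdm4d, Kdm5d, Kdm6a, Kdm8, Kmt5c, Setd6, Sirt1, Sirt4 and Sirt5. In 12 genes every assigned peak was of constant height. A single peak was assigned to 11 genes and 5 or more to 28. These counts have no value over all protein-coding genes beside them and do not set the group apart. Peak number went with gene length across the genes of the group (Spearman's rho 0.469 over 62 genes) and across all protein-coding genes (0.526 over 21938); genes are not independent replicates. In genes under 20 kb the median was 15.0 peaks per 100 kb of body for the group and 0 for all genes. At 20 to 100 kb it was 5.33 and 4.45, and at 100 kb or more 3.06 and 4.17.

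The sequence under the peaks differed with position. Near a TSS the 200 bp windows of the group had a median GC content of 59.5% (56.0 to 64.0) beside 57.0% for all near-TSS peaks, and a median ratio of observed to expected CpG of 0.503 (0.340 to 0.654) beside 0.469. Away from a TSS the GC content was 48% in both. Over all its peaks the window exceeded its flanks, 1000 bp to either side, by a median of 3.25 percentage points (2.25 to 4.25), beside 3 for all peaks. These values were all within the intervals of the group.

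The insulin response sequence was in 44 of 339 windows (13.0%, 9.81 to 17.0) and in 9.95% of windows of all peaks, just inside the interval. In the flanks of the same peaks it was in 14.7%, and in 13.6% for all peaks. Near a TSS it was in 2 of 76 windows (2.63%, 0.725 to 9.10), the pair in Kmt2d and Setd1b shown above, beside 5.40% of all near-TSS windows. Away from a TSS it was in 42 of 263 (16.0%, 12 to 20.9), beside 10.8% of all such windows and 15.2% of the flanks of the same 263 peaks. Among the 39 peaks in the highest 10% the share was 2.56% (0.454 to 13.2), beside 5.96% of all peaks of that height, which lies inside the interval. A match is a string of letters and not a measured binding site.

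Partners of these enzymes were counted from lists of complex subunits and related enzymes. Of 70 such genes, 62 had a peak and 44 (62.9%, 51.1 to 73.2) had one within 1 kb of a TSS, beside the 42.5% of all protein-coding genes and 75.8% of the enzymes. In the deacetylase corepressor complexes it was 15 of 21, including Sin3a, the scaffold of the Sin3 complex, with a peak of 983, and Gatad2b of NuRD with 477. In Polycomb repressive complex 2 it was 6 of 7, with Aebp2 highest at 254 and no peak for Phf1. Among the COMPASS subunits it was 7 of 10, with Paxip1 highest at 316. It was 12 of 18 other methyltransferases, with Smyd3 highest at 391, and 3 of 7 other acetyltransferases, where Ep300 reached 393 with no peak within 1 kb. Only 1 of 7 other demethylases, Phf8, had such a peak. The median length of the 70 genes was 41.4 kb, above that of all protein-coding genes. Its part in these shares was not tested, nor were the differences between these lists.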

How the data were processed

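Per the labels' protocols, the authors mapped trimmed read pairs with Bowtie2 (mm10), dropped duplicates and reads of low quality, and ran SEACR with the IgG library as control. The protocols name deepTools for tracks, which were not used here. Versions and SEACR settings are not given in the sources used here, nor is the tool or transcript set of the annotation. The deposited peak list gives total signal and maximum signal (read coverage) per peak, and the deposited annotation gives the assigned gene, class and distance to the TSS at the region of maximum signal. Of 99797 peaks, 15 had no annotation. The IgG library's own signal was not analysed here. All columns used belong to the anti-FLAG library, and 0 were left unmapped.

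Peaks were joined to the annotation by the region of maximum signal, and the total signal was equal in both for all 99782. Gene bodies, 5′ ends and transcript starts came from GENCODE M21, and sequence from the NCBI GRCm38.p6 assembly, both of the mm10 build. Of the 339 peaks, 335 had a transcript in that release. Peaks were assigned to a gene body by the midpoint of their maximum-signal region, and background genes were matched by symbol or identifier. Shares, medians and intervals were computed in Python 3.11.15 with numpy 2.4.6, pandas 2.3.3, scipy 1.17.1 and pysam 0.24.0, and the functions were tested on simulated data. There was no test between conditions. Named were, in each class, the genes with the most peaks and the highest maximum signal, the 10 highest peaks, genes with a peak over a start, genes without a peak within 1 kb, and X and Y genes; further genes were named to account for every class. The members, the complex lists and the shape measure were chosen with earlier results of these data known.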

Additional observations from a re-analysis of the deposited data

How the results depend on the processing

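Over 9 results and 86 alternatives, 49 stayed within the interval of the reported value (for the number of peaks, within 1.5 times) and 37 moved. Leaving out the acetyltransferases or Hdac4, merging peaks within 1 kb and using GENCODE M21 in place of the deposited assignment were among those that stayed. The number of peaks stayed only by the limit of 1.5 times. It was 339 as reported, 273 by the nearest TSS in GENCODE M21 and 262 when peaks had to overlap the gene body. Every subset holds fewer peaks by construction. In the order above-median maximum signal, top 10% by maximum signal, top 10% by total signal and varying height only, the number of peaks was 178, 39, 46 and 121, the median maximum signal 138.5, 266, 214.5 and 153, the genes with a peak within 1 kb 54.8%, 24.2%, 33.9% and 59.7%, the peaks per 100 kb 3.0, 0, 0 and 2.14, and the windows with the insulin response sequence 9.55%, 2.56%, 4.35% and 9.09%. For the last 3 of these subsets the peaks within 1 kb were 43.6%, 52.2% and 41.3%, the intronic peaks 23.1%, 19.6% and 21.5%, and the GC difference 6.75, 6.75 and 5.75 points. Constant height fell to 47.2% above the median, 52.2% at widths of at least 200 bp, and 0% in both top 10% sets. With a distance of 500 bp, 17.1% of peaks were near a TSS; with 3 kb, 36.9% of peaks and 87.1% of genes. In windows of 400 bp the insulin response sequence was in 23.0%. Over all peaks of those 3 subsets the share within 1 kb was 32.2%, 36.0% and 23.2%. Some results went from above all peaks to below them. The insulin response sequence did so in the top 10% by maximum and by total signal (5.96% and 5.90% of all peaks). Constant height did so above the median (50.9%), at widths of at least 200 bp (52.5%) and in both top 10% sets (0.139% and 1.54%). Median maximum signal did so in the top 10% by total signal (219). Each of these all-peak values lay inside the group's interval. The 20 to 100 kb length range was the 1 setting chosen after the values were seen. No paired analysis was possible because each antibody has 1 library. Depth is unknown and limits every value.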
